A study of Mus musculus with 22 samples.

Results

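Glucagon was given back to mice that lack the gene for it, and the liver's mRNA was compared with that of knockout mice given no infusion. The comparison rests on 7 of the 22 libraries of the series: 4 from Gcg-/- liver under glucagon at 150 µg/d and 3 from Gcg-/- liver without infusion, which their labels alone put in these groups. All 7 carry the same deletion of Gcg. The other libraries are 4 from Gcg-/- liver at 30 µg/d and 11 from wild-type (WT) liver (3 without infusion, 4 at 30 µg/d and 4 at 150 µg/d). Each library goes by the running number of its title: 4, 5 and 6 are the uninfused Gcg-/- libraries, and 19, 20, 21 and 22 are those at 150 µg/d. The sources used here give no age, sex, strain, route or length of infusion. The labels do not say whether uninfused mice received a pump or a vehicle, so glucagon and the infusion procedure cannot be told apart. They also do not say that each library came from its own mouse, so p-values measure only the spread between libraries. That spread was estimated within groups over all 22 libraries.

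Glucagon is a peptide of the pancreatic alpha cell that binds its receptor Gcgr on hepatocytes. The receptor couples to adenylyl cyclase, and cyclic AMP (cAMP) then activates protein kinase A and the transcription factor CREB. In liver the hormone is known for raising glucose output and for driving the uptake and breakdown of amino acids, whose nitrogen leaves as urea. The design asks what an outside supply of the hormone does in a liver that has grown without it.

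The promoters of Pck1, Atf3 and Txnip are shown because they carry the best-known DNA elements of this biology and belong to genes that changed. Pck1 codes for phosphoenolpyruvate carboxykinase, the textbook target of cAMP in liver, and it rose. Atf3 codes for a stress-induced transcription factor of the CREB family, and it fell. Txnip codes for the thioredoxin-interacting protein, a brake on glucose uptake whose promoter is known for a repeated element that answers to sugar, and it fell. The 250 bases before each start are printed 5′ to 3′ from RefSeq on GRCm38.p6. Capitals mark, in Pck1 and Atf3, the 6-letter core TGACGT of the cAMP response element (read here as ACGTCA) and, in Txnip, a pair of CACGNG with 5 bases between them. Pck1 lies at chr2:173152823-173153072 on the plus strand, Atf3 at chr1:191183334-191183583 on the minus strand and Txnip at chr3:96557707-96557956 on the plus strand.
Pck1: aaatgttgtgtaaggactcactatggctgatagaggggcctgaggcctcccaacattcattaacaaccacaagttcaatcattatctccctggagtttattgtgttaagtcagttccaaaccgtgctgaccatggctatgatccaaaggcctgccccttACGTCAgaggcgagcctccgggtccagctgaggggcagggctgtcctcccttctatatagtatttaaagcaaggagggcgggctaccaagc
Atf3: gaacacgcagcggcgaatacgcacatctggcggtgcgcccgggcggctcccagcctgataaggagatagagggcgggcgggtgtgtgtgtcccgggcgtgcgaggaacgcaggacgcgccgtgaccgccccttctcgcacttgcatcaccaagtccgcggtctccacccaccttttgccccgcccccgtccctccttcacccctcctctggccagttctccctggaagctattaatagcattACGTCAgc
Txnip: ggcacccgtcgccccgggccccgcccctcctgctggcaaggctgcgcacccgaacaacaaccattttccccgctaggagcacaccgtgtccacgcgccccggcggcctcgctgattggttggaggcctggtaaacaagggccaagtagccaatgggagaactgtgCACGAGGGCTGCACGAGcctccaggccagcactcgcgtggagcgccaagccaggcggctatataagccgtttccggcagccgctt
The capitals begin 91 bases before the start of Pck1, 8 before that of Atf3 and 85 before that of Txnip. Searched on both strands, the 6-letter core was in the windows of 7.29% of 27025 genes and of 11.6% of the 9236 tested genes with a window. It was in 12 of 118 genes that rose (10.2%) and in 8 of 130 that fell (6.15%). Besides Pck1, the genes that rose with the core in this window included Aass, of lysine breakdown. The whole palindrome TGACGTCA, which contains the core, was in 1 of the 118 and 1 of the 130, and in 2.94% of the tested genes. The repeat of Txnip was in 14 of the 27025 genes (0.0518%), and its letters were loosened to match Txnip's own promoter, so its presence there is no finding. Rbbp4, a histone-binding protein that fell, was the other called gene with it. These matches describe letters and nothing about which factor was bound.

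Depth was estimated from the steps between low RPKM values (reads normalized for transcript length and library depth) at 11.6 to 16.8 M reads for the 7 libraries, so that 1 read on a transcript of 1 kb is worth 0.0596 to 0.0865 RPKM. Across genes, Spearman's rho between libraries was 0.949 to 0.979 among the uninfused and 0.969 to 0.983 among the infused. Gcg had the value 0 in each of the 22 libraries, also in WT, so it gives no check of the genotype labels here. All 15 hepatocyte identity genes were measured, and 9 of 12 pancreas markers were at 0 in all 7 libraries. Library 4 stood apart among the uninfused. It was the lowest of its 3 libraries in 20 of 20 male-biased liver genes and the highest in 14 of 15 female-biased ones. Mup20, a male-biased urinary protein, stood at 855.5, 7162 and 14147 RPKM in libraries 4, 5 and 6, while Cyp2b9, a female-biased cytochrome, stood at 111, 0.664 and 0. Library 19 stood apart among the infused, with the lowest of 4 values in 5060 of the 11590 tested genes (43.7%). Some list results are therefore also given without library 4. For the total number of calls and for most named genes that were called, the effect of leaving out single libraries is given. Calls that uncalled named genes gained this way are also given. No list was counted without library 19.

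In Gcg-/- liver 315 genes differed in level between the infusion of 150 µg/d and no infusion, with amino acid enzymes among the rises and drug-metabolizing cytochromes among the falls. Growth-arrest genes also fell, but of their list only Klf10 was called without library 4. The 315 genes were 2.72% of the 11590 tested genes, at a limma adjusted p under 0.05: 152 rose (1.31%) and 163 fell (1.41%). A change of at least 2-fold, on the scale of log2(RPKM + 1) used throughout, was called in 42 genes that rose (0.362%) and 26 that fell (0.224%). The scale understates changes of low genes. Rises made up 48.3% of the calls; scaling by median ratios raised this to 67.0% and quantile normalization to 60.3%, so the balance of rises and falls depends on scaling. The median change over all tested genes was −0.04, and 6776 of the 11590 changes were negative. Counts of list members below are to be read beside these shares of all genes. The 2 groups did not overlap in 527 genes that were higher (4.55%) and 1037 that were lower (8.95%). Among called genes this held for 142 of the 152 rises and 158 of the 163 falls. The calls rest on the same values and favour separated groups, so the shares among called genes are no added evidence.

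The number of calls leaned on single libraries and on the pooled spread. It was 61 without library 4, 132 without 5, 365 without 6, 585 without 19, 194 without 20, 115 without 21 and 74 without 22. Fitted on the 7 libraries alone, limma called 1 gene, Inhba, with 1672 genes at an unadjusted p under 0.05. The naming rule took the largest rises and falls only where the 2 groups did not overlap, so for those that is no added evidence. Of 82 called genes taken by the naming rule, 22 were called whichever of the 7 libraries was left out, and these carry the account below where possible. They are Oat, Nnmt, Gls2, Lhpp, Fh1, Hip1r, Gnat1, Mmd2, Ctcflos, Slc25a48 and Ebp, which rose, and Txnip, Klf10, Inhba, Slc20a1, Rhob, Cyp2c29, Cyp2c37, Cyp2c50, Cyp2d10, Abcb11 and Tek, which fell. Of other genes named below, testing with no filter on low genes ended the calls of Got1, Cth, Mat1a, Ass1, Asl, Acmsd, Aox1, Hgd, Aldh1l1, Ftcd, Sdsl, Slc38a3, Slc16a10, Slc25a47 and Rgs16. Quantile normalization ended those of Mat1a, Ass1, Asl, Aldh1l1, Slc38a3 and Igfbp4.

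**Figure D1:**
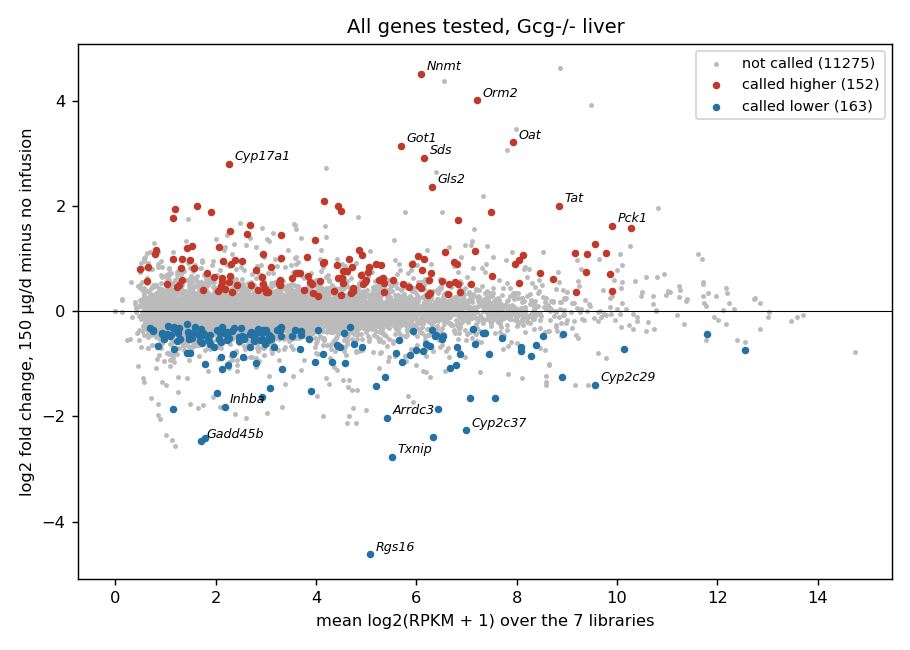
Each point is 1 of the 11590 tested genes, with its mean log2(RPKM + 1) over the 7 libraries on the x axis and its log2 fold change (150 µg/d minus no infusion) on the y axis. The 152 called rises are red and the 163 called falls blue; Nnmt lies highest among the named rises at 4.51 and Rgs16 lowest at −4.63.

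Some enzymes that take amino acids apart rose, while most genes of their lists did not pass. Over 9 lists of amino acid breakdown, urea synthesis and amino acid transport, 120 distinct genes were tested. Of these 25 rose and 1, Aox1, fell (21.7% called, beside 2.72% of all genes), with a median change of 0.23 beside −0.04. Negative changes were 30 of the 120, beside 6776 of all 11590. Scaling by median ratios gave 33 rises and quantile normalization 22, with 1 fall in each. Without library 4 the count was 7 rises and no fall, with the median again 0.23. Library 19 was the lowest of the 4 infused libraries in 68 of the 120 genes (56.7%, beside 43.7% of all genes).

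Ornithine, glutamine and glutamate are handled by Oat, Gls2 and Got1, the 3 genes that rose of 15 tested on their list. Oat, ornithine aminotransferase (chr7:132557475-132576398, GRCm38.p6), stood at 52.1, 71.9 and 80.6 RPKM in libraries 4, 5 and 6, and at 245, 910.4, 822 and 855 RPKM in libraries 19 to 22. Every infused library lay above every uninfused one, with library 19 between the rest. The change was 3.21 ± 0.39 (log2, SE; limma adjusted p = 0.000715). Gls2, the liver glutaminase (chr10:128194635-128210004), stood at 44.3, 20.7 and 30.4 RPKM without infusion and at 70.03, 210.3, 213 and 206.5 RPKM with it. Its groups did not overlap, and it rose by 2.36 ± 0.40 (adjusted p = 0.00466). Got1, the cytosolic aspartate aminotransferase (chr19:43499752-43524605), stood at 21.4, 9.93 and 12.5 RPKM and at 23.8, 189, 262 and 239.8 RPKM. Here library 19 sat barely above the highest uninfused library, and the rise of 3.14 ± 0.75 (adjusted p = 0.0308) was lost without any one of libraries 4, 5, 6, 20, 21 or 22 (adjusted p up to 0.101).

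Serine, threonine and glycine breakdown held 3 rises among 16 tested genes, Sds, Sdsl and Gnmt. Sds, serine dehydratase, stood at 33.7, 11.9 and 24.9 RPKM in libraries 4, 5 and 6, and at 52.9, 242.5, 269 and 235 RPKM in 19 to 22. It rose by 2.91 ± 0.58 (adjusted p = 0.014, up to 0.0638 without library 5 or 22). Gnmt, glycine N-methyltransferase, which also disposes of methyl groups from methionine, stood at 458, 418 and 497 RPKM and at 660.4, 1414, 1392 and 1151 RPKM. Its rise was 1.28 ± 0.25 (adjusted p = 0.0139, up to 0.0642 without library 4 or 5). In both genes the infused libraries were all above the uninfused ones, and library 19 was the nearest to them.

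Tyrosine breakdown showed 3 rises among 8 tested genes, with a median over the 8 of 0.63. Tat, tyrosine aminotransferase and its first step, stood at 189, 175 and 269 RPKM without infusion and at 577, 1209, 1256 and 554 RPKM with it. It rose by 2.0 ± 0.41 (adjusted p = 0.0161, up to 0.0731 without library 4, 5 or 21). Qdpr, which regenerates the cofactor of phenylalanine hydroxylase, rose by 0.67 ± 0.16 (adjusted p = 0.0297), and Hgd, homogentisate dioxygenase, by 0.98 ± 0.25 (adjusted p = 0.0413). Library 19, at 187 RPKM, overlapped the uninfused libraries in Hgd, which ranged from 154 to 193 RPKM. Qdpr lost its call without library 4, 5, 20, 21 or 22 (adjusted p up to 0.103), and Hgd also without library 6 (up to 0.169). None of the 3 was called without library 4.

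Methionine and its sulfur pass through Mat1a, which makes S-adenosylmethionine, and Cth, cystathionine gamma-lyase; both rose, with Gnmt, among 11 tested genes. Cth stood at 92.1, 91.1 and 71.9 RPKM in libraries 4, 5 and 6, and at 99.6, 454, 403 and 532 RPKM in 19 to 22. The rise was 1.88 ± 0.46 (adjusted p = 0.0353), with library 19 close to the uninfused level. Mat1a stood at 752, 574 and 423.5 RPKM and at 975, 1162, 1338 and 1441 RPKM, without overlap, and rose by 1.10 ± 0.26 (adjusted p = 0.0298). Cth lost its call without any one library but 19 (adjusted p up to 0.121), and Mat1a without library 5, 6, 20, 21 or 22 (up to 0.0936).

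Tryptophan and nicotinamide metabolism gave the largest rise among the genes that held in every left-out fit. Nnmt, nicotinamide N-methyltransferase (chr9:48538002-48607655), stood at 1.52, 16.4 and 32.8 RPKM in libraries 4, 5 and 6, and at 140.9, 288, 315 and 355 RPKM in 19 to 22. The lowest infused library was above the highest uninfused one, and the rise was 4.51 ± 0.55 (adjusted p = 0.000715). The size depends on library 4: the change ranged from 3.42 to 5.30 over the fits that left out 1 library. Acmsd, which diverts tryptophan carbon away from NAD, rose by 1.64 ± 0.43 (adjusted p = 0.0465). It stood at 2.69 RPKM in library 19, near the 2.22 to 2.44 RPKM of the uninfused libraries, and at 11.9 to 15.5 RPKM in the other 3. Aox1, an aldehyde oxidase that also oxidizes N-methylnicotinamide, fell by 0.69 on the log2 scale (adjusted p = 0.0386), from 25.1 to 31.3 RPKM without infusion to 12.6 to 21.8 RPKM with it. Acmsd lost its call without any one library but 19 (adjusted p up to 0.15), and Aox1 without library 4, 5, 19 or 22 (up to 0.132).

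Histidine breakdown had 2 rises among 6 tested genes, and the breakdown of branched-chain amino acids and lysine had 2 among 20. Aldh1l1 and Ftcd, both of the folate end of histidine breakdown, rose by 0.61 ± 0.15 and 0.52 ± 0.13 (adjusted p = 0.0333 and 0.0394). Aass, the first enzyme of lysine breakdown, stood at 66.1, 57.3 and 57.7 RPKM and at 85.2, 161, 129 and 168.5 RPKM. It rose by 1.11 ± 0.22 (adjusted p = 0.0153, up to 0.058 without library 5 or 22). Bckdha, which belongs to the dehydrogenase of branched-chain keto acids, rose least, by 0.32 ± 0.08 (adjusted p = 0.047), from 81.9 to 90.3 RPKM without infusion to 104.5 to 110.6 RPKM with it. Without library 4, 5, 20, 21 or 22 neither Aldh1l1 (adjusted p up to 0.146), Ftcd (up to 0.129) nor Bckdha (up to 0.156) was called, nor were Ftcd and Bckdha without library 6.

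Of 18 tested carriers of amino acids 4 rose. Slc3a1, the heavy chain of the cystine and dibasic amino acid transporter, stood at 3.59, 9.84 and 18.2 RPKM in libraries 4, 5 and 6, and at 34.4, 21.8, 44.8 and 62.6 RPKM in 19 to 22, a rise of 1.99 ± 0.44 (adjusted p = 0.0216). Slc38a3, the system N glutamine transporter, ranged from 455 to 551 RPKM without infusion and from 717 to 979 RPKM with it, and rose by 0.75 ± 0.19 (adjusted p = 0.0364). Slc16a10, an aromatic amino acid transporter, ranged from 13.3 to 19.3 RPKM and from 22.1 to 30.9 RPKM, and rose by 0.76 ± 0.18 (adjusted p = 0.0308). Slc1a5, the ASCT2 carrier of glutamine, was low in every library, at 0.495 to 0.837 RPKM and 0.888 to 1.76 RPKM, and rose by 0.52 ± 0.13 (adjusted p = 0.033). Groups did not overlap in any of the 4. None of the 4 was called without library 4, and over all left-out fits their adjusted p reached 0.131 for Slc3a1 (lost also without 5, 21 or 22), 0.104 for Slc38a3 (5, 6, 20, 21 or 22), 0.156 for Slc16a10 (6, 20, 21 or 22) and 0.151 for Slc1a5 (5, 20, 21 or 22).

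The urea cycle had the highest share of called members, 4 rises and no fall among 10 tested genes, with a median change of 0.83. Ass1, argininosuccinate synthase, stood at 790.5, 486 and 775 RPKM in libraries 4, 5 and 6, and at 877, 2836, 2854 and 2246 RPKM in 19 to 22. It rose by 1.58 ± 0.38 (adjusted p = 0.0308). Arg1, arginase, stood at 524, 350.2 and 471 RPKM and at 588, 1001, 1171 and 1105 RPKM, and rose by 1.08 ± 0.20 (adjusted p = 0.00985, 0.0531 without library 5). Library 19 was again the lowest infused library in both, though above every uninfused one. Asl, argininosuccinate lyase, and Nags, which makes the activator of the cycle, rose by 0.89 ± 0.23 and 0.63 ± 0.14 (adjusted p = 0.043 and 0.024). For Nags the groups overlapped, with library 19 at 18.4 RPKM and library 6 at 18.6 RPKM. For Asl library 19, at 215 RPKM, was barely above library 4, at 212 RPKM. Cps1, the mitochondrial entry step, had 467 to 653 RPKM without infusion and 661 to 1358 RPKM with it, a change of 1.0 ± 0.27 that did not pass (adjusted p = 0.0562). Of the left-out fits, only that without library 19 called Cps1. Without library 4, 5, 20, 21 or 22 the calls of Ass1 (adjusted p up to 0.12), Asl (up to 0.142, and lost also without 6) and Nags (up to 0.131) ended. Of the 10, 6 rose when scaled by median ratios and 3 under quantile normalization.

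**Figure D2:**
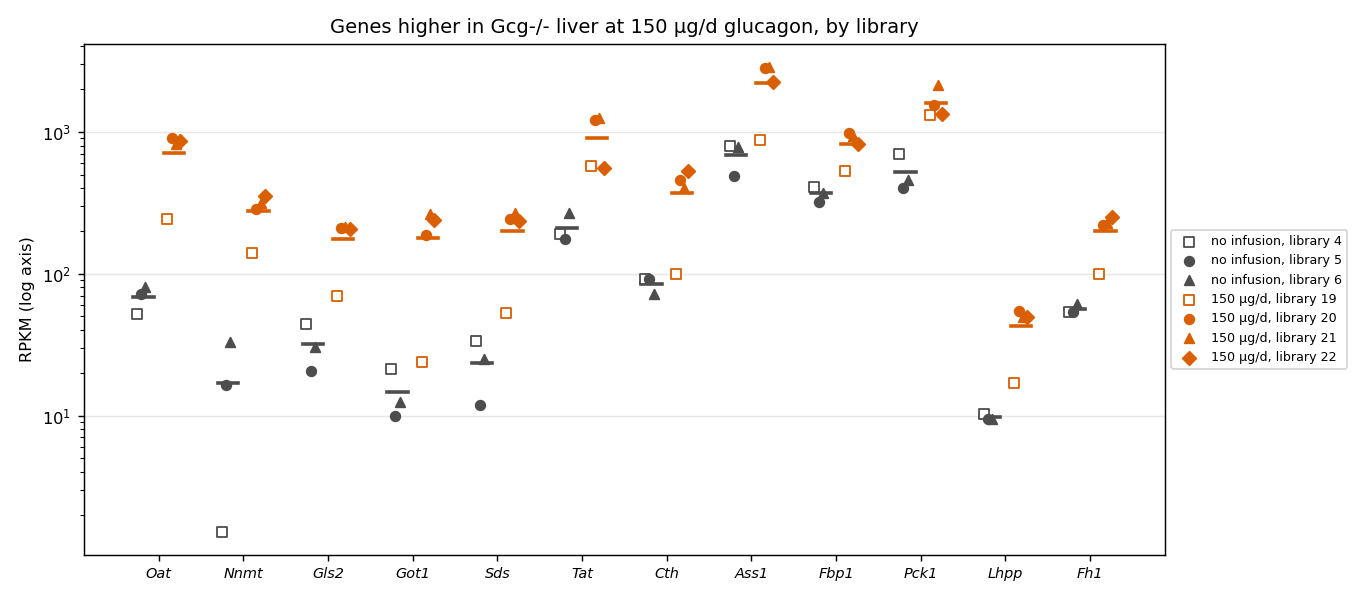
RPKM on a log axis for 12 genes that rose, by library; grey symbols are the 3 uninfused and orange the 4 infused Gcg-/- libraries, short lines are group means, and open squares are libraries 4 and 19. In Oat the infused libraries lie between 245 and 910.4 RPKM and the uninfused between 52.1 and 80.6, and library 19 is the lowest infused library in 11 of the 12 genes shown.

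Glucose production changed at single steps. Among 20 tested genes of gluconeogenesis, Pck1, Fbp1 and Got1 rose and Slc25a47 fell. Pck1 (chr2:173153073-173159274), whose promoter is printed above, stood at 699.8, 403 and 457 RPKM in libraries 4, 5 and 6, and at 1319, 1542, 2145 and 1344 RPKM in 19 to 22. It rose by 1.62 ± 0.33 (adjusted p = 0.0161, up to 0.0658 without library 5 or 21), and library 19 did not stand apart from the other infused libraries. Fbp1, fructose-1,6-bisphosphatase, stood at 411, 322 and 373 RPKM and at 531, 985, 927 and 820.2 RPKM. Its groups did not overlap, and it rose by 1.11 ± 0.23 (adjusted p = 0.0156, 0.0615 without library 5). G6pc, glucose-6-phosphatase and the last step, had 221, 345 and 185 RPKM without infusion and 71.1, 190.4, 155.5 and 63.8 RPKM with it. The groups overlapped and the change of −1.16 ± 0.65 did not pass (adjusted p = 0.355). Ppargc1a, the coactivator PGC-1alpha, had 0.569 to 1.84 RPKM and 1.56 to 4.94 RPKM (change 0.82 ± 0.28, adjusted p = 0.127). It was called in the fit without library 19 and in no other left-out fit. Slc25a47, a liver mitochondrial carrier, fell by 0.86 on the log2 scale (adjusted p = 0.0413), from 358 to 543 RPKM to 191 to 327 RPKM; the call ended without library 4, 5, 20, 21 or 22 (adjusted p up to 0.195). Median-of-ratios scaling also ended it.

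Other metabolic genes that rose in every left-out fit were not on the amino acid lists. Fh1, fumarate hydratase, stood at 53.9, 54.0 and 61.6 RPKM in libraries 4, 5 and 6, and at 100.02, 222, 228 and 250.6 RPKM in 19 to 22, and rose by 1.73 ± 0.28 (adjusted p = 0.00373). Lhpp, a phosphohistidine phosphatase, stood at 10.2, 9.40 and 9.52 RPKM and at 16.96, 54.95, 49.2 and 49.8 RPKM, and rose by 1.90 ± 0.33 (adjusted p = 0.00466). Ebp, the sterol isomerase, had 71.2 to 82.9 RPKM without infusion and 117 to 183 RPKM with it, and rose by 0.89 ± 0.12 (adjusted p = 0.000978). It was the single call among 23 genes of cholesterol synthesis, whose median change was 0.06. Hip1r, an endocytosis adaptor, had 3.59 to 5.49 RPKM and 7.32 to 19.3 RPKM, a rise of 1.44 ± 0.25 (adjusted p = 0.00561). Slc25a48, a mitochondrial carrier, had 2.17 to 2.70 RPKM and 4.63 to 6.03 RPKM, a rise of 0.89 ± 0.14 (adjusted p = 0.00224). None of these genes overlapped between the groups, which the naming rule required of Fh1, Lhpp and Hip1r.

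Mmd2, Gnat1 and Ctcflos, of low level, also rose in every left-out fit. Mmd2 stood at 0, 0.033 and 0.159 RPKM in libraries 4, 5 and 6, and at 1.33, 3.16, 2.02 and 8.47 RPKM in 19 to 22, a rise of 1.94 ± 0.32 (adjusted p = 0.00373). Uninfused values were at most a few reads, so the size of the change depends on the pseudocount. Gnat1, a transducin subunit best known from rods, stood at 2.09, 1.16 and 1.86 RPKM and at 4.33, 6.09, 7.99 and 9.11 RPKM, a rise of 1.52 ± 0.29 (adjusted p = 0.00985). Ctcflos (chr2:173124749-173133204), a noncoding transcript annotated opposite Ctcfl and in the neighbourhood of Pck1, stood at 0.147, 0.449 and 0.664 RPKM and at 2.30, 3.62, 6.26 and 8.02 RPKM, a rise of 2.0 ± 0.33 (adjusted p = 0.00405). The sources used here do not say whether counting used strand, so its reads and those of an opposite gene could not be told apart.

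Along the signalling chain itself almost nothing passed. Of 24 tested genes from the receptor through adenylyl cyclase, protein kinase A, phosphodiesterases and CREB coactivators, Rgs16 fell and none rose, with a median change of 0.00. Gcgr, the receptor, stood at 70.3, 89.4 and 89.2 RPKM without infusion and at 92.3, 73.7, 76.3 and 74.5 RPKM with it. The groups overlapped, and the change of −0.06 ± 0.10 did not pass (adjusted p = 0.788). Rgs16, a regulator of G protein signalling that fluctuates with feeding, stood at 301, 221 and 142 RPKM in libraries 4, 5 and 6, and at 97.6, 13.4, 1.19 and 0.754 RPKM in 19 to 22. It fell by 4.63 on the log2 scale (SE 1.16, adjusted p = 0.0386), and its infused values spread from 0.754 to 97.6 RPKM. The call ended without any one library but 19 (adjusted p up to 0.143).

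Txnip, arrestin-domain genes and sugar-responsive genes of the ChREBP set gave 4 falls and no rise among 14 tested (28.6%, beside 1.41% of all genes), with a median change of −0.48. Txnip (chr3:96557957-96561857), whose promoter is printed above, stood at 163.8, 165 and 93.9 RPKM in libraries 4, 5 and 6, and at 30.5, 18.2, 18.6 and 13.1 RPKM in 19 to 22. The groups were far apart and it fell by 2.77 on the log2 scale (SE 0.40, adjusted p = 0.00204). Arrdc3, an arrestin-domain relative of Txnip, stood at 93.5, 91.6 and 98.7 RPKM and at 33.8, 45.7, 10.6 and 14.8 RPKM. It fell by 2.03 (SE 0.46, adjusted p = 0.0263), and lost the call without library 4, 5, 6, 21 or 22 (up to 0.0934). Klf10, a zinc-finger repressor that answers to glucose and the clock, stood at 15.2, 17.9 and 8.98 RPKM and at 4.25, 4.30, 3.25 and 2.98 RPKM, and fell by 1.64 (SE 0.22, adjusted p = 0.00159). Rgs16 was the fourth. Mlxipl, which codes for ChREBP, and Pklr, its classical target, had changes of −0.46 and −0.69 and did not pass.

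Immediate-early and growth-arrest genes had 5 falls and no rise among 24 tested, with a median change of −0.76. Gadd45b, a stress and growth-arrest gene, stood at 19.9, 8.68 and 2.30 RPKM in libraries 4, 5 and 6, and at 0.902, 0.237, 0.694 and 0.51 RPKM in 19 to 22. It fell by 2.48 on the log2 scale (SE 0.47, adjusted p = 0.00985, 0.0711 without library 4). Its relative Gadd45a fell by 1.47 (SE 0.32, adjusted p = 0.0226), from 9.71 to 23.8 RPKM to 1.93 to 7.53 RPKM. Atf3, printed above, stood at 22.3, 8.65 and 2.21 RPKM and at 1.07, 0.698, 0.787 and 0.267 RPKM, and fell by 2.41 (SE 0.64, adjusted p = 0.0478). Klf4 fell by 0.67 (SE 0.15, adjusted p = 0.0208) at levels of 0.646 to 2.12 RPKM and 0.41 to 0.644 RPKM. Klf10 was the fifth. In Gadd45b, Gadd45a and Atf3 library 4 was the highest uninfused library by a wide margin, and Klf10 was the only one of the 5 called without it. Gadd45a also lost its call without library 21 or 22 (up to 0.131), Atf3 without 5, 20, 21 or 22 (up to 0.258) and also with a pseudocount of 0.1 or 0.5, no filter or quantile normalization (0.0565, 0.0502, 0.0927 and 0.05002), and Klf4 without 5 or 22 (up to 0.0973).

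The falls of Inhba, Slc20a1 and Rhob held in every left-out fit. Inhba (chr13:16004256-16031609), the activin A subunit, a secreted growth regulator, stood at 7.92, 8.39 and 8.61 RPKM in libraries 4, 5 and 6, and at 1.71, 1.37, 1.503 and 2.03 RPKM in 19 to 22. It fell by 1.82 on the log2 scale (SE 0.27, adjusted p = 0.00213), as the single call among 21 secreted hepatic factors. Slc20a1, a phosphate importer, stood at 54.4, 16.8 and 19.9 RPKM and at 7.63, 10.95, 9.45 and 6.80 RPKM. It fell by 1.52 (SE 0.27, adjusted p = 0.00732) and by 1.01 without library 4, which held its highest value. Rhob, a small GTPase, stood at 21.1, 13.4 and 10.7 RPKM and at 8.10, 5.90, 5.77 and 5.29 RPKM, and fell by 1.11 (SE 0.19, adjusted p = 0.00412).

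**Figure D3:**
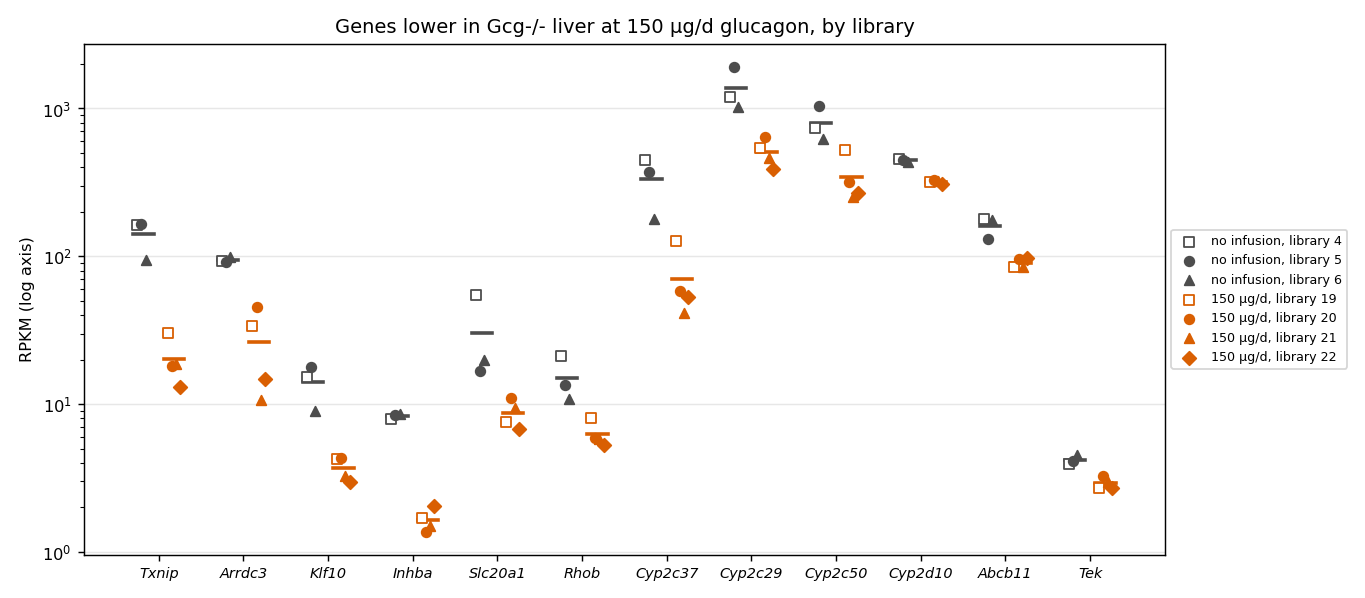
RPKM on a log axis for 12 genes that fell, by library, with symbols as in the plot of genes that rose. In Inhba the uninfused libraries lie between 7.92 and 8.61 RPKM and the infused between 1.37 and 2.03, and no gene shown has an infused library above the lowest uninfused one.

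The Cyp2c cytochromes, which oxidize drugs, steroids and fatty acids, had 4 falls and no rise among 13 tested genes. All 13 changes were negative (beside 6776 of all 11590), with a median of −1.31, and −1.26 and −1.40 under the 2 other scalings. Without library 4 the median was −1.04 and 3 of the 13 fell. Cyp2c37 stood at 445, 374 and 179 RPKM in libraries 4, 5 and 6, and at 127, 58.1, 41.7 and 52.8 RPKM in 19 to 22, and fell by 2.27 on the log2 scale (SE 0.37, adjusted p = 0.0038). Cyp2c29 stood at 1189, 1902 and 1028 RPKM and at 543, 638, 462 and 391 RPKM, and fell by 1.40 (SE 0.25, adjusted p = 0.00718). Cyp2c50 stood at 735, 1046 and 626 RPKM and at 526, 319.7, 252 and 268 RPKM, and fell by 1.26 (SE 0.23, adjusted p = 0.00718). Cyp2c54 fell by 1.66 (SE 0.31, adjusted p = 0.00863, 0.0523 without library 4). No infused library reached the lowest uninfused one in these 4 genes. The family is a cluster of near-identical copies, so reads could have been divided among its members. Cyp2d10, of another drug-metabolizing family, was the single call among 23 other cytochromes and their receptors: it stood at 457, 447 and 435 RPKM and at 319, 329, 325 and 309 RPKM, and fell by 0.48 (SE 0.07, adjusted p = 0.00213).

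Bile acid transporters and some steroid enzymes fell too. Abcb11, the bile salt export pump, stood at 177.5, 131 and 175.5 RPKM in libraries 4, 5 and 6, and at 85.3, 95.3, 84.5 and 97.8 RPKM in 19 to 22, and fell by 0.81 on the log2 scale (SE 0.14, adjusted p = 0.00561). Slc10a1, the bile acid importer, fell by 0.65 (SE 0.15, adjusted p = 0.027), from 374 to 518.5 RPKM to 235 to 312 RPKM, and its call ended without library 4, 5, 21 or 22 (adjusted p up to 0.143). They were the 2 calls among 23 genes of bile acid synthesis and transport. Cyp7a1, the rate-limiting enzyme of bile acid synthesis, had 59.3 to 89.4 RPKM and 37.4 to 90.6 RPKM and did not pass (adjusted p = 0.699). Among 21 steroid-metabolizing enzymes 3 fell and 1 rose. Hsd17b6, a hydroxysteroid dehydrogenase, stood at 488, 173 and 104 RPKM and at 21.9, 60.4, 50.7 and 33.0 RPKM, and fell by 2.39 (SE 0.51, adjusted p = 0.0183, up to 0.118 without library 4 or 22). Hsd11b1, which regenerates corticosterone, and Akr1c14 fell by 0.69 and 0.62 (adjusted p = 0.0165 and 0.0263), both lost without library 4, 5 or 22 and Akr1c14 also without 21 (up to 0.0823 and 0.0982). Cyp17a1, the steroid 17-hydroxylase, was the rise: 0.973, 0.0385 and 0.975 RPKM against 1.60, 11.3, 13.7 and 31.3 RPKM (2.80 ± 0.58, adjusted p = 0.0165), lost without library 4, 5, 21 or 22 (up to 0.0696).

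**Figure D4:**
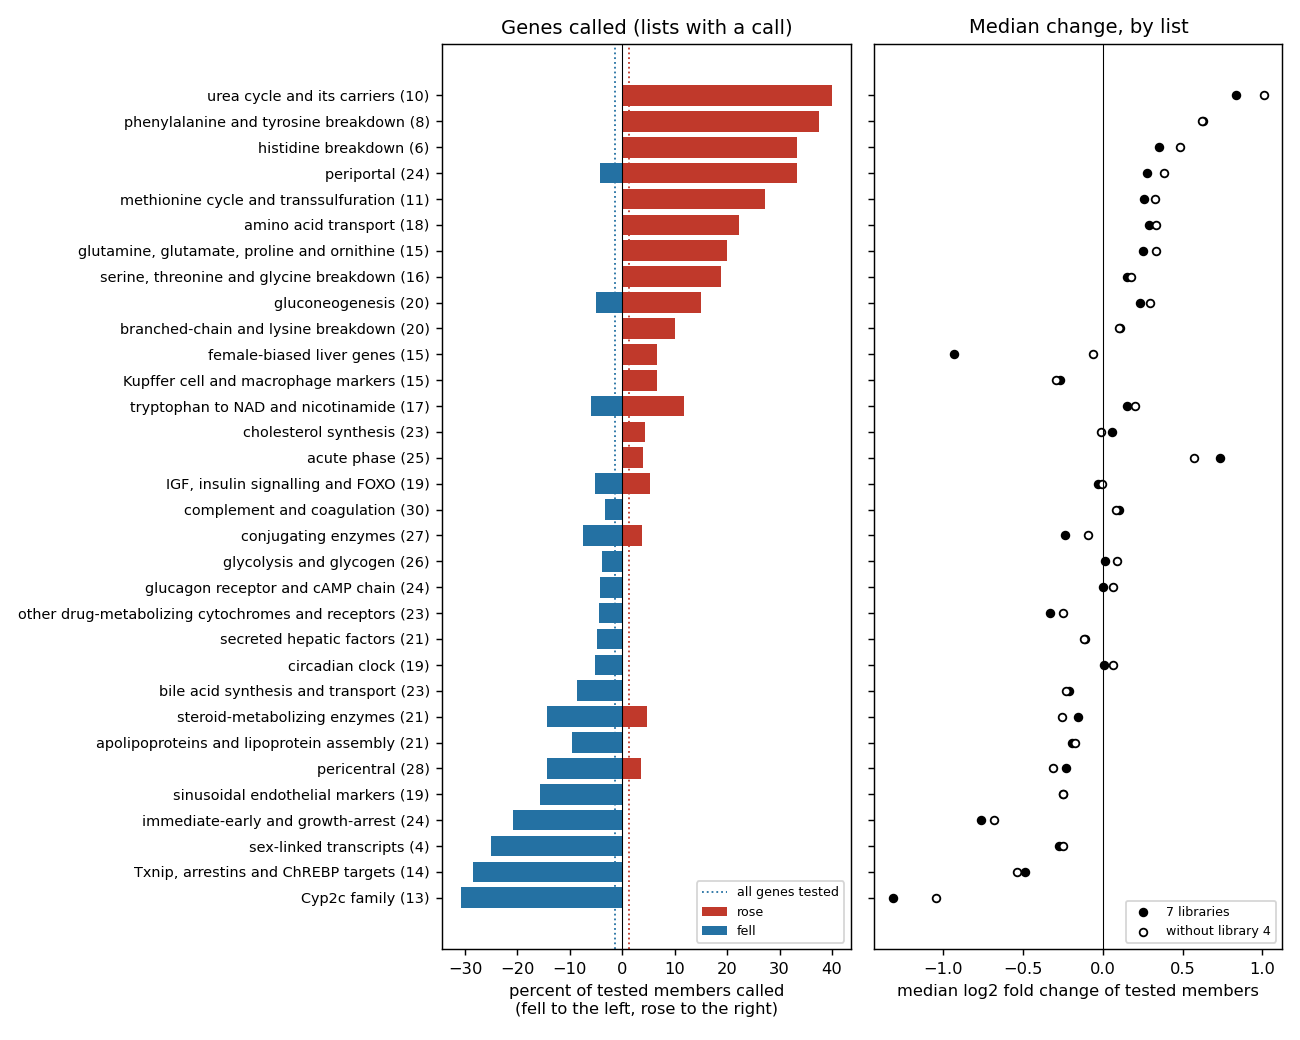
Left, the percent of each list's tested genes (number in brackets) that rose (red, to the right) or fell (blue, to the left) in Gcg-/- liver at 150 µg/d, for the lists with at least 1 call; dotted lines mark all genes tested, at 1.31 and 1.41%. Right, the list's median log2 fold change over all 7 libraries (filled) and without library 4 (open); urea cycle genes lie at 0.83 and 1.01, and female-biased genes move from −0.93 to −0.06.

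Fat metabolism showed little that passed. None of 19 genes of fatty acid synthesis and none of 28 of fatty acid oxidation and ketogenesis were called, with median changes of −0.06 and −0.20 (limma). After quantile normalization 2 of the 28 fell, and 1 rose without library 4. Fgf21, a fasting hormone on both the oxidation and the stress lists, had 4.86, 0.824 and 2.08 RPKM and 0.948, 0.76, 0.214 and 0.434 RPKM, a change of −1.04 ± 0.29 that did not pass (adjusted p = 0.067). Fgf21 was called without library 5 or 19. Lipoprotein genes had 2 falls among 21: Lipc, hepatic lipase, from 73.0 to 87.7 RPKM to 35.9 to 53.1 RPKM, and Mttp, which loads lipid onto apolipoprotein B, from 95.3 to 105.8 RPKM to 69.2 to 78.4 RPKM. They fell by 0.84 and 0.45 (adjusted p = 0.0161 and 0.0299). Lipc lost its call without library 5 or 21 (up to 0.0608) and Mttp without 4, 5, 21 or 22 (up to 0.105). Mttp also lost it under median-of-ratios scaling (0.0553), which left 1 fall on the list.

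The response to amino acid shortage gave no call. Of 15 tested targets of ATF4, the factor of amino acid shortage, none rose or fell, and the median was −0.02 (0.01 after both other scalings). Asns, asparagine synthetase, stood at 1.11, 1.25 and 2.84 RPKM without infusion and at 3.09, 6.41, 6.52 and 10.4 RPKM with it. The groups did not overlap, yet the change of 1.44 ± 0.46 did not pass (adjusted p = 0.1). Among the left-out fits, only that without library 19 called Asns. None of 25 genes of the unfolded protein response, 25 nuclear genes of oxidative phosphorylation, 13 mitochondrially encoded genes or 17 cell cycle genes were called. Median-of-ratios scaling called 2 of oxidative phosphorylation.

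Acute phase proteins were high in some infused libraries. Of 25 tested genes 23 had a positive change (beside 4814 of all 11590), with a median of 0.73 (0.57 without library 4), and 1, Orm2, rose. Orm2, an orosomucoid with near-identical neighbours, stood at 12.7, 32.8 and 57.8 RPKM in libraries 4, 5 and 6, and at 538, 65.3, 1040 and 1489 RPKM in 19 to 22. Library 20 lay just above the highest uninfused one, and the rise of 4.01 ± 1.07 (adjusted p = 0.0494) ended without any one library but 20 (up to 0.206). It also ended with quantile normalization, no filter or no mean-variance trend (0.0506, 0.0963 and 0.05015). The list had no rise after quantile normalization and 2 after median-of-ratios scaling. Library 19 was the highest of the 4 infused libraries in 15 of the 25 genes. Mt1, a metallothionein that answers to stress and zinc, stood at 429, 52.6 and 10.7 RPKM and at 1970, 139.8, 859 and 1071 RPKM (3.46 ± 0.95, adjusted p = 0.057). Its groups overlapped.

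Insulin-like growth factor genes moved at 2 of 19. Igfbp2, a binding protein, fell by 1.65 on the log2 scale (SE 0.37, adjusted p = 0.0237), from 771, 282 and 218 RPKM to 91.3, 155.5, 115 and 106 RPKM, and lost its call without library 4, 21 or 22 (up to 0.132). Igfbp4, another, rose by 0.36 ± 0.09 (adjusted p = 0.0314), from 461 to 542 RPKM to 600.3 to 703 RPKM, lost without 4, 5, 20, 21 or 22 (up to 0.158).

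The liver's zones were then examined through their markers. Of 24 periportal genes 8 rose and 1 fell, and of 28 pericentral genes 1 rose and 4 fell, with medians of 0.275 and −0.23. The 8 periportal rises were Sds, Gls2, Ass1, Asl, Arg1, Pck1, Fbp1 and Ftcd, all of amino acid, urea or glucose metabolism, and the fall was Hsd17b6. The pericentral rise was Oat and the 4 falls were the Cyp2c genes above. All of these 14 are therefore on other lists too. Another 4 zone markers, Cyp2f2, Glul, Cyp2e1 and Axin2, did not pass. Cyp2f2, of periportal cells, had 523 to 865 RPKM and 531 to 711 RPKM (change −0.15 ± 0.17, adjusted p = 0.681, and 0.036 without library 6). Glul, glutamine synthetase of the cells around the central vein, had 394 to 623 RPKM and 342 to 539.5 RPKM (−0.38 ± 0.24, adjusted p = 0.408). Cyp2e1 had 3748 to 5651 RPKM and 2392 to 4461 RPKM (−0.55 ± 0.22, adjusted p = 0.192), and Axin2, a Wnt target, had 1.64 to 2.21 RPKM and 1.23 to 1.86 RPKM (−0.23 ± 0.21, adjusted p = 0.579). In all 4 the groups overlapped. In Cyp2e1 they did so only through library 19, at 4461 RPKM, and Cyp2e1 was called without that library. Without library 4, 5 periportal genes rose and none fell, and 1 pericentral gene rose and 3 fell.

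Markers of endothelial cells were lower. Of 19 tested sinusoidal endothelial genes 3 fell (15.8%, beside 1.41% of all genes). All 19 changes were negative, beside 6776 of all 11590, and the median was −0.25 (−0.20 and −0.24 under the 2 other scalings). Summed over the 20 genes of the list, the level was 280.8 to 294 RPKM without infusion and 215 to 253 RPKM with it. Tek, the angiopoietin receptor, stood at 3.96, 4.13 and 4.53 RPKM and at 2.73, 3.28, 2.99 and 2.72 RPKM, and fell by 0.41 on the log2 scale (SE 0.08, adjusted p = 0.0115). Cdh5, the endothelial cadherin, fell by 0.47 (adjusted p = 0.0241), from 12.5 to 13.3 RPKM to 8.05 to 9.51 RPKM. Pecam1, which joins endothelial cells, fell by 0.35 (adjusted p = 0.0297), from 6.95 to 7.50 RPKM to 4.94 to 5.88 RPKM. In bulk liver, fewer cells of a type and less RNA per cell cannot be told apart. Cdh5 lost its call without library 4, 5, 20, 21 or 22 (up to 0.103) and Pecam1 without 4, 5, 6, 20 or 22 (up to 0.122).

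Markers of other cells gave 1 call. The 15 Kupffer cell and macrophage genes summed to 382 to 414 RPKM without infusion and 262 to 450.5 RPKM with it. Of their changes 14 were negative, beside 6776 of all 11590, with a median of −0.265. The exception, Mpeg1, a pore-forming protein of macrophages, rose by 0.76 ± 0.16 (adjusted p = 0.0164, up to 0.0973 without library 4 or 22), from 14.4 to 18.9 RPKM to 25.3 to 34.4 RPKM. None of 16 stellate cell and fibroblast genes, 3 cholangiocyte, 4 lymphocyte, 4 neutrophil, 5 red blood cell, 2 pancreas and 2 adipocyte genes were called. Cholangiocyte markers summed to 61.0 to 177 RPKM without infusion and 23.2 to 99.2 RPKM with it, and red blood cell markers to 650.5 to 2451 RPKM and 323 to 946 RPKM. Their part in the results above was not tested.

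Sex-biased genes followed library 4. The 20 male-biased genes had a median change of 0.91, which was −0.09 without library 4, and none was called. The 15 female-biased genes had −0.93, and −0.06 without it, and Cyp17a1 was called. Xist was at most 0.0294 RPKM in the 7 libraries. Ddx3y, on the Y chromosome, had 12.2 to 14.3 RPKM without infusion and 8.04 to 11.8 RPKM with it, groups that did not overlap, and did not pass (adjusted p = 0.193). Eif2s3y, also on the Y chromosome, fell by 0.64 on the log2 scale (SE 0.14, adjusted p = 0.0235), from 24.4 to 29.0 RPKM to 13.1 to 22.7 RPKM, lost without library 4, 5, 21 or 22 (up to 0.085). The part of library 4's pattern in the other results was not tested.

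Where the high dose went beyond the low one was tested directly, with 150 µg/d against 30 µg/d in Gcg-/- liver. Here 63 genes were called (0.544%), 35 higher (0.302%) and 28 lower (0.242%) at 150 µg/d. Oat had 164 ± 39.7 RPKM (SD, n = 4) at 30 µg/d and 708 ± 311 (n = 4) at 150 µg/d, with 68.2 ± 14.6 (n = 3) uninfused, and was higher at the high dose by 1.96 ± 0.37 (adjusted p = 0.0182). Lhpp, at 13.4 ± 2.58, 42.7 ± 17.4 and 9.72 ± 0.46 RPKM in the same order, was higher by 1.49 ± 0.30 (adjusted p = 0.0283). Fh1, at 81.2 ± 20.5, 200.2 ± 67.9 and 56.5 ± 4.40 RPKM, was higher by 1.24 ± 0.26 (adjusted p = 0.0335). Mt1 was higher by 4.49 ± 0.88 (adjusted p = 0.0239), from 31.0 ± 4.63 to 1010 ± 754 RPKM. Asns was higher by 1.94 ± 0.43 (adjusted p = 0.0452), from 0.874 ± 0.27 to 6.61 ± 2.99 RPKM, and Mat1a by 1.10 ± 0.24 (adjusted p = 0.0411). Gnat1, Mmd2, Ctcflos, Ebp and Gstm2, a glutathione transferase, were also higher at 150 µg/d (adjusted p = 0.00772 for Gnat1, Mmd2 and Ebp, 0.0182 for Ctcflos and 0.0411 for Gstm2). Over the 120 amino acid genes 4 were called between the doses, Oat, Asns and Mat1a higher and Aox3, an aldehyde oxidase, lower.

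Genes lower at 150 than at 30 µg/d included Cyp2c50, with 707.5 ± 73.9 RPKM at 30 µg/d and 341 ± 126 at 150 µg/d (a difference of −1.11 ± 0.21, adjusted p = 0.0205). Cyp2d10 was lower by 0.34 (adjusted p = 0.0231) and Akr1c14 by 0.86 (adjusted p = 0.00772). Rbbp4 was lower by 1.41 (adjusted p = 0.0172). Txnip and Klf10 showed no called difference between doses. Txnip had 28.86 ± 17.98 RPKM at 30 µg/d and 20.1 ± 7.37 at 150 µg/d (−0.40 ± 0.37, adjusted p = 0.708), and Klf10 had 3.30 ± 1.0 and 3.69 ± 0.68 RPKM (0.15 ± 0.21, adjusted p = 0.826). Pck1 had 1061 ± 418 and 1587 ± 385 RPKM (0.62 ± 0.31, adjusted p = 0.415), and Tat 675 ± 278 and 899 ± 386 RPKM (0.39 ± 0.38, adjusted p = 0.735). The 30 µg/d libraries against no infusion gave 10 calls (0.0863%), of which Txnip fell by 2.36 (adjusted p = 0.0199) and Klf10 by 1.79 (adjusted p = 0.00176). Both comparisons share libraries with the main one. The count of 63 moved to between 10 (without library 22) and 282 (without 19) when 1 library was left out. It was 39 with no filter on low genes and 0 with the pair of groups fitted alone (1371 at an unadjusted p under 0.05). Library 13 stood apart among libraries 11 to 14, those at 30 µg/d. Its male-biased genes summed to 4627 RPKM, beside 28848 to 42027 in the others. Its female-biased genes summed to 326 RPKM, beside 69.7 to 159. Without library 13, 122 genes were called, 57 higher and 65 lower at 150 µg/d.

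Whether the response to 150 µg/d differed between Gcg-/- and WT liver was tested as the difference of both dose effects. No gene passed (limma, smallest adjusted p = 0.108), with 1187 of 11590 genes at an unadjusted p under 0.05 (10.2%), and array weights called 66. Oat had the largest gap among the 4 genes of smallest p: uninfused WT liver had 677 ± 106 RPKM (SD, n = 3) and infused WT liver 801 ± 318 (n = 4), so that its change was larger by 3.07 ± 0.56 in Gcg-/- liver (adjusted p = 0.108). Slc25a48 had 6.77 ± 1.07 and 6.02 ± 1.26 RPKM in WT (gap 1.05 ± 0.19, adjusted p = 0.108), and Ebp had 137 ± 3.99 and 134 ± 11.6 RPKM (gap 0.93 ± 0.16, adjusted p = 0.108). Dab2, an endocytosis adaptor, followed with a gap of −0.82 ± 0.16 (adjusted p = 0.148). Txnip had 28.9 ± 10.97 and 30.2 ± 9.99 RPKM in WT (gap −2.82 ± 0.56, adjusted p = 0.164). Nnmt had 109.5 ± 9.25 and 289.6 ± 78.2 RPKM in WT (gap 3.16 ± 0.78, adjusted p = 0.182). Mmd2 had 2.98 ± 0.95 and 15.02 ± 1.82 RPKM in WT, and 0.064 ± 0.084 and 3.75 ± 3.24 RPKM in Gcg-/- liver. Its gap was −0.09 ± 0.45 (adjusted p = 0.969). Uninfused Gcg-/- values lay near 0, so the size of this gap depends on the pseudocount. The change of Mmd2 in Gcg-/- liver ranged from 1.92 to 4.33 over the alternatives that kept every library of the compared groups. A p that misses the threshold does not show that the genotypes respond alike.

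How far the infused Gcg-/- liver stood from uninfused WT liver was tested last. Here 23 genes were called (0.198%), 10 higher (0.0863%) and 13 lower (0.112%) in Gcg-/- liver at 150 µg/d. None of the 120 amino acid genes was among them, which is near the share of all genes and does not set them apart. Their median was −0.03, beside −0.02 of all genes. Missing the threshold here does not show that levels were alike. Oat was at 708 ± 311 RPKM against 677 ± 106 in uninfused WT (−0.09 ± 0.39, adjusted p = 0.957). Gls2 was at 175 ± 70.0 against 164 ± 13.8 RPKM (−0.03 ± 0.40, adjusted p = 0.984), and Lhpp at 42.7 ± 17.4 against 42.7 ± 6.28 RPKM. Inhba was at 1.65 ± 0.29 against 1.94 ± 0.92 RPKM (−0.10 ± 0.27, adjusted p = 0.928), and Txnip at 20.1 ± 7.37 against 28.9 ± 10.97 RPKM. Nnmt and Fh1 had means above WT, 275 ± 93.4 against 109.5 ± 9.25 RPKM and 200.2 ± 67.9 against 94.4 ± 4.56 RPKM, without passing (adjusted p = 0.394 and 0.146). Klf10 was below WT, at 3.69 ± 0.68 against 9.61 ± 0.56 RPKM (−1.19 ± 0.22, adjusted p = 0.034), and Btg3, an antiproliferative gene, was the called gene farthest above it (1.46 ± 0.20, adjusted p = 0.00391). Ces2a, a carboxylesterase, was below WT by 1.25 (adjusted p = 0.042), and Gbp10, an interferon-induced GTPase, by 1.03 (adjusted p = 0.034). The count of 23 ranged from 0 without WT library 3 to 42 without library 19.

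**Figure D5:**
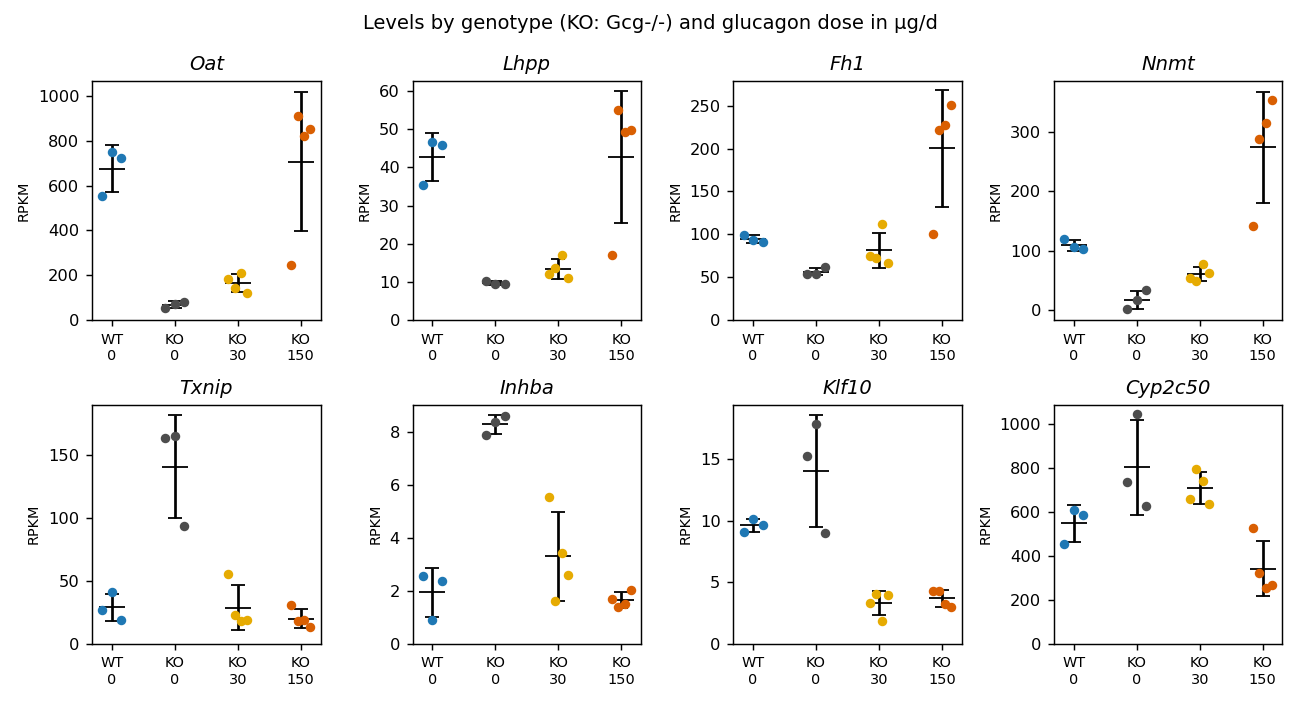
RPKM of 8 genes in uninfused WT liver and in Gcg-/- (KO) liver at 0 (no infusion), 30 and 150 µg/d; points are libraries, with the group mean and SD as a bar (n = 3 or 4). Oat is at 68.2 RPKM uninfused, 164 at 30 and 708 at 150 µg/d beside 677 in WT, while Klf10 is at 3.30 and 3.69 RPKM at the doses beside 9.61 in WT.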

How the data were processed

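Liver polyA RNA was sequenced from strand-specific libraries, per the labels' protocols. CASAVA 1.8.2, FastQC and the build GRCm38 are named, per the submitters' processing notes. The aligner, the counter and the annotation used: not given in the sources used here. The authors deposited 1 RPKM column for each of the 22 libraries, unpooled, with 24475 genes, 5599 of them at 0 everywhere. Groups come from the titles. The comparison and the gene lists (50 lists, 834 distinct genes) were chosen with earlier results of these data known; which libraries belong to each group follows from the labels.

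Limma 3.58.1 (R 4.3.3) was fitted to log2(RPKM + 1) over all 6 groups, without covariates and with a mean-variance trend, for 11590 genes with a mean of at least 0.5 RPKM; p-values were adjusted by Benjamini-Hochberg over these genes and called under 0.05. SE values are limma's. Depth rests on the 66.8 to 72.0% of low values that were whole within 0.1 of a read (chance gives 20%), so no count model was used. For the main comparison on simulated data, the fit recovered 64.2% of 1.5-fold, 92.5% of 2-fold and 98.5% of 4-fold changes over 11590 genes. It made 7 false calls of 177. For the interaction it recovered 44.8%, 71.6% and 97.0%. These rates describe the simulated data only. In the real main comparison, leaving out single libraries moved the number of calls between 61 and 585. Whether the rates hold where libraries stand apart from their group was not tested.

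Named genes are the 20 largest called rises and falls of at least 2-fold without overlap and with a mean of at least 1 RPKM, up to 5 called members of each list, 6 in each direction of the other comparisons (or the 4 genes of smallest p if there were under 4 calls), and a set list of landmarks; not all taken are named. Mlxipl and Pklr were named after their values were seen. Alternatives were other pseudocounts, filters, scalings, weights and fits, and each library left out. Gene positions and promoter windows are from RefSeq on GRCm38.p6.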

Additional observations from a re-analysis of the deposited data

Results flagged for a closer look

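In each group of 4 infused Gcg-/- libraries, a value was picked out where its gap to the nearest other library, over the group's range, passed Dixon's 95% limit. This happened in 13 of 103 genes examined, and chance alone gives about 1 group in 20. In 11 of the 13, library 19 was the lowest. Its values were 245 RPKM in Oat, 23.8 in Got1, 52.9 in Sds, 70.03 in Gls2, 16.96 in Lhpp, 99.6 in Cth, 100.02 in Fh1, 2.69 in Acmsd, 187 in Hgd, 215 in Asl and 22.1 in Slc16a10. Over all 11590 tested genes library 19 was such a low value in 294 (2.54%), beside 60, 27 and 54 for libraries 20, 21 and 22. The others were Gcgr, where library 19 was the highest at 92.3 RPKM, and Klf4, where library 21 was the highest at 0.644 RPKM. Without library 19, 585 genes were called in the main comparison in place of 315.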

How the results depend on the processing

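No paired analysis was possible because the running numbers are unique and no number is shared by 2 groups. Of 315 genes called at 150 µg/d against no infusion, array weights called 770, with 306 of the 315 among them, and the groups compared alone called 1; leaving out 1 library gave 61 to 585. For 150 against 30 µg/d (63 genes), no filter gave 39, array weights 541 and the groups alone 0, and leaving out 1 library 10 to 282. For the difference between genotypes (0 genes), array weights gave 66 and leaving out 1 library 0 to 5. Against uninfused WT (23 genes), no filter gave 11, array weights 715 and leaving out 1 library 0 to 42. The cause was not tested; by construction, the fits that left out a library or other groups had fewer libraries, and those with no filter adjusted over more genes. Mup20 changed by 0.01, which reversed to −0.0427 under quantile normalization, −0.46 with array weights, and −1.17, −0.0567, −0.0153 and −0.0575 without library 4, 19, 21 or 22 (range −1.17 to 0.85). Cyp2f2 reversed to 0.036 without library 6 (range −0.33, without 5, to 0.036). No called gene among those named reversed in any alternative: of 1643 values for single genes 1261 stayed on their side of the threshold, 356 lost it, 19 gained it and 7 reversed. At the estimated depth, genes below about 0.1 RPKM rest on few reads.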

Other observations

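The genes of these groups were put together after their values were seen, so their counts describe and do not test. Beside the endothelial markers, other genes of vessels fell at 150 µg/d in Gcg-/- liver. Elk3, a transcription factor of endothelium, stood at 3.89, 3.40 and 3.13 RPKM in libraries 4, 5 and 6, and at 2.20, 2.39, 1.804 and 1.801 RPKM in libraries 19 to 22 (log2 change −0.55 ± 0.09, limma adjusted p = 0.0038, and 0.0337 without library 4). Klf2, which answers to blood flow, stood at 6.01, 8.39 and 4.52 RPKM and at 2.79, 1.88, 2.53 and 2.88 RPKM (−1.03 ± 0.23, adjusted p = 0.0216, and 0.0771 without library 4). Ets1 fell by 0.54, Tie1 by 0.56 and Clec14a by 0.54 on the log2 scale (adjusted p = 0.0132, 0.0165 and 0.0183, and 0.0856, 0.068 and 0.111 without library 4). Nos3, the endothelial nitric oxide synthase, was at 1.08 to 1.24 RPKM and 0.705 to 0.946 RPKM and did not pass (adjusted p = 0.0876).

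Carboxylesterases, which split esters of drugs and lipids, had 4 falls and no rise among 14 tested genes, with a median of −0.705. Ces1g stood at 263, 209 and 103 RPKM without infusion and at 121, 62.8, 40.4 and 17.6 RPKM with it (−1.86 ± 0.46, adjusted p = 0.0378). Ces1c, Ces2a and Ces2g fell by 0.72, 1.09 and 0.82 (adjusted p = 0.0208, 0.025 and 0.0161). All 4 calls ended without library 4 (adjusted p = 0.174 for Ces1g, 0.121 for Ces1c, 0.143 for Ces2a and 0.102 for Ces2g), and copies of this family are near-identical.

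Among 13 retinoid genes 3 fell and 1 rose. Rdh10, which oxidizes retinol, stood at 10.3, 10.1 and 8.68 RPKM and at 6.44, 7.14, 6.27 and 5.62 RPKM (−0.54 ± 0.09, adjusted p = 0.0047, and 0.0411 without library 4). Dhrs3, which reduces retinal back to retinol, fell by 0.73 (adjusted p = 0.0079) and Retsat, a retinol saturase, by 1.03 (adjusted p = 0.0313). Rara, a retinoic acid receptor, rose by 0.42 ± 0.11 (adjusted p = 0.0399). Dhrs3, Retsat and Rara were not called without library 4 (adjusted p = 0.0642, 0.18 and 0.0697).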
